A study of Mus musculus with 3 samples.

Results

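Of 4780 Tbx4 sites mapped by chromatin immunoprecipitation with sequencing (ChIP-seq) in mouse hindlimb buds, 815 (17.1%, 95% Wilson interval 16 to 18.1%) lay in gene deserts and had no Hoxc10 summit beside them. A site here is the summit of a called peak, given to 1 bp. The members were chosen by 3 measured properties. Their summit lay outside every protein-coding gene, over 100 kb from the nearest end of such a gene, and over 200 bp from every summit of a Hoxc10 list made with the Abcam antibody. Because position and Hoxc10 overlap chose the sites, both are given below as a description. There is 1 peak list for each factor and there are no replicates, so counts and medians carry no test between embryos, and intervals cover counting error only.

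The tissue was the hindlimb of wild type CD1 embryos at stage e11.5, in days of embryonic development, fixed with 1% formaldehyde. The Tbx4 library was made with a homemade antibody (1695a) and the Hoxc10 library with ab153904 from Abcam. The other library, made with a Santa Cruz Hoxc10 antibody, was not analysed here. How many embryos were pooled is not stated in the labels, and whole buds hold mesenchyme, ectoderm, vessels and nerves together.

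Tbx4 is a T-box transcription factor of hindlimb mesenchyme, needed for outgrowth of the hindlimb bud, and Hoxc10 is a posterior Hox protein of the same tissue. T-box proteins hold DNA through a shared domain that recognises the letters AGGTGT or close variants. Gene deserts are long stretches with no protein-coding gene. Many genes that pattern the limb, among them Sox9 and the Hoxd cluster, are controlled by enhancers spread over such stretches and brought to the promoter by looping of chromatin.

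Reference sequence under the summit could be read for only 5 of the 815 sites, those that fall in a promoter window of an annotated long non-coding RNA (lncRNA) gene. A window holds 300 bases, 250 before and 50 after the transcription start. These windows are shown because they are the only desert sites whose DNA can be printed here. They come from RefSeq on GRCm38.p6, the build mm10. Each is written 5′ to 3′ on the strand of the lncRNA, and capitals mark the summit with 10 bases to each side.
Gm35551, chr17:84044537-84044836, minus strand: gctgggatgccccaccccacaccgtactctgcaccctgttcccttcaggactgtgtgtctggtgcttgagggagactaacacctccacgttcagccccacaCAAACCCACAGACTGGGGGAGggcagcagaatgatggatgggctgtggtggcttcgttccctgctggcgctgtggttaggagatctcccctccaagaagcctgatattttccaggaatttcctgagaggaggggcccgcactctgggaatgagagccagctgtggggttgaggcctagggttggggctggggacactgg
Gm35217, chr14:28798366-28798665, minus strand: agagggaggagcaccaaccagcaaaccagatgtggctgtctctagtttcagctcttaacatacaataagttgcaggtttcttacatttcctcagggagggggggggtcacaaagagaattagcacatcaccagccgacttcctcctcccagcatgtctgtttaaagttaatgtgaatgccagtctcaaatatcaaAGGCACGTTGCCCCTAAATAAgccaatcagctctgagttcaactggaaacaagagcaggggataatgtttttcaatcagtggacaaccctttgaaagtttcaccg
3110009F21Rik, chr12:110158024-110158323, minus strand: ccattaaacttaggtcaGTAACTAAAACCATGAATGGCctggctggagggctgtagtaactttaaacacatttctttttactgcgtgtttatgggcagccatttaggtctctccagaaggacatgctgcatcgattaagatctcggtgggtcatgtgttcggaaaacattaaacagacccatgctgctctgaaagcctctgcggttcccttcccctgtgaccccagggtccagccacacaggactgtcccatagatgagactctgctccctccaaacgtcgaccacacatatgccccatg
Gm3716, chr5:64610650-64610949, minus strand: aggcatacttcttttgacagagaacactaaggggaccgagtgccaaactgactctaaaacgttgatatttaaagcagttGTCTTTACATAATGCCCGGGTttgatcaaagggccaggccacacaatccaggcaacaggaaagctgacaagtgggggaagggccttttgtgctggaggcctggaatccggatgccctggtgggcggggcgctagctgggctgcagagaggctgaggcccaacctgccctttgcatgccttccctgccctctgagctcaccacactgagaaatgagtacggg
LOC115486408, chr9:41805634-41805933, minus strand: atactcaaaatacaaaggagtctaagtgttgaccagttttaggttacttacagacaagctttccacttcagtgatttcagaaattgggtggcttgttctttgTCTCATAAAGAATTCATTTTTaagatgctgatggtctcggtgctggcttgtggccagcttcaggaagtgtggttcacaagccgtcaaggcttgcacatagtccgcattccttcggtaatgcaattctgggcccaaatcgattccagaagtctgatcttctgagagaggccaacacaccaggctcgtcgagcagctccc

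The site in the Gm35551 window lay between Haao and Zfp36l2 and scored 2.26, and it was the only one of the 5 with AGGTGT or its reverse complement ACACCT. The match began at base 79 of the window, and its middle lay 31 bp from the summit at base 112. Around it the strand reads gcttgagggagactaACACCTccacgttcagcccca, with the match in capitals. On either strand, AGGTGT occurred in 13.7% of 32817 promoter windows of this length and GGTGTGA in 3.98%, and GGTGTGA was in none of the 5 windows. Gm35217 starts in the desert beside Wnt5a, a signal of limb outgrowth, and its site scored 4.46. 3110009F21Rik starts between Rtl1 and Dio3, both imprinted genes, and its site scored 6.19. The sites at Gm3716 and LOC115486408 scored 5.3 and 2.94. On the opposite strand the last of these sites also fell in the window of a second lncRNA, Gm35940, which held no AGGTGT either. The match is a run of letters, not a tested binding site.

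The score deposited for each site is the MACS2 value on a −log10 scale, used only within the Tbx4 list. Desert sites ranged from 1.35 to 104.5, with a median of 3.67 and quartiles of 2.94 and 6.19. The values fell on a coarse grid, and 567 of the 815 sites carried 1 of the 6 most common scores, such as 2.94 (136 sites) and 2.26 (118 sites). The Tbx4-only sites inside genes and those 1 to 100 kb from genes had the same median and quartiles. Sites at gene ends had a median of 2.94. The 166 Tbx4 desert sites that the Hoxc10 rule left out had a median of 7.14 and quartiles of 3.67 and 12.4. Scores over 20 were found at 29 desert sites, or 3.56%, against 5% of the whole Tbx4 list. The whole list includes co-bound sites, of which 13.9% scored over 20. For Tbx4-only sites the share was 5.04% inside genes, 4.01% at 1 to 100 kb from genes and 1.16% at gene ends. At the edge of the distance rule, a site between Ubash3b and Gm40514 was kept at 100202 bp from a gene (score 2.94), and a site between Hmga2 and Msrb3 was left out at 99954 bp (2.26). At the edge of the Hoxc10 rule, a site between Pax1 and Foxa2 was kept with a Hoxc10 summit 211 bp away (5.3), and a site between Veph1 and Shox2 was left out at 198 bp (8.12).

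Tbx4-only sites had a similar density from 10 to 300 kb from genes and a lower one toward the centres of long deserts. Between 10 and 50 kb from a gene there were 1.28 sites per Mb, and between 50 and 100 kb 1.38. Between 100 and 200 kb the density was 1.31 per Mb (319 sites, 95% Poisson interval 1.17 to 1.47), and between 200 and 300 kb it was 1.32 (1.14 to 1.52). Density then was 1.12 per Mb at 300 to 500 kb (0.962 to 1.29), 0.61 at 500 kb to 1 Mb (0.495 to 0.743) and 0.31 over 1 Mb from a gene (23 sites, 0.197 to 0.466). On the autosomes alone the corresponding values were 1.57, 1.54, 1.28, 0.669 and 0.281 per Mb, in the same order. Unassembled stretches were not subtracted from these lengths. The median member lay 244 kb from the nearest protein-coding gene (quartiles 155 and 391 kb). The most remote member, between Olfm4 and Pcdh17 on chromosome 14, was 2126006 bp from any such gene and scored 9.15.

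**Figure D1:**
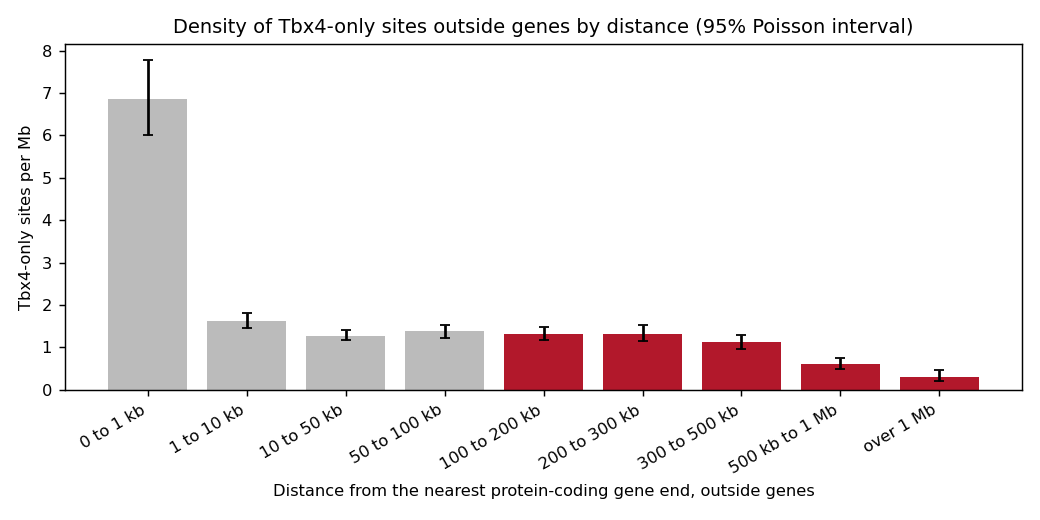
Tbx4-only sites per Mb (vertical axis) by distance from the nearest protein-coding gene end, for sites outside genes and between 2 such genes; red bars are the desert sites and error bars are 95% Poisson intervals. The bars stay between 1.28 and 1.38 from 10 to 300 kb and reach 0.31 over 1 Mb.

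A desert is taken here as the stretch between neighbouring protein-coding genes, and 1689 such stretches were over 200 kb long and could hold a member. Of these, 404 held at least 1 (23.9%, Wilson interval 21.9 to 26%). A single site was found in 218 deserts, 2 sites in 93, and 3 or more in 93. The 35 deserts with 5 or more sites held 219 of the 815 members (26.9%). Of the other members, 2 lay between the outermost gene and a chromosome end and are in none of these counts. The share with a site was larger in longer deserts, from 10.6% of those of 200 to 500 kb to 53.6% of those over 2 Mb. Per Mb the order was different. Deserts of 500 kb to 1 Mb held 1.58 sites per Mb of their interior, those of 200 to 500 kb 1.29, those of 1 to 2 Mb 1 and those over 2 Mb 0.444. Across the 1689 deserts, which share neighbouring genes, length and site count had a Spearman's rho of 0.4, given as a description.

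**Figure D2:**
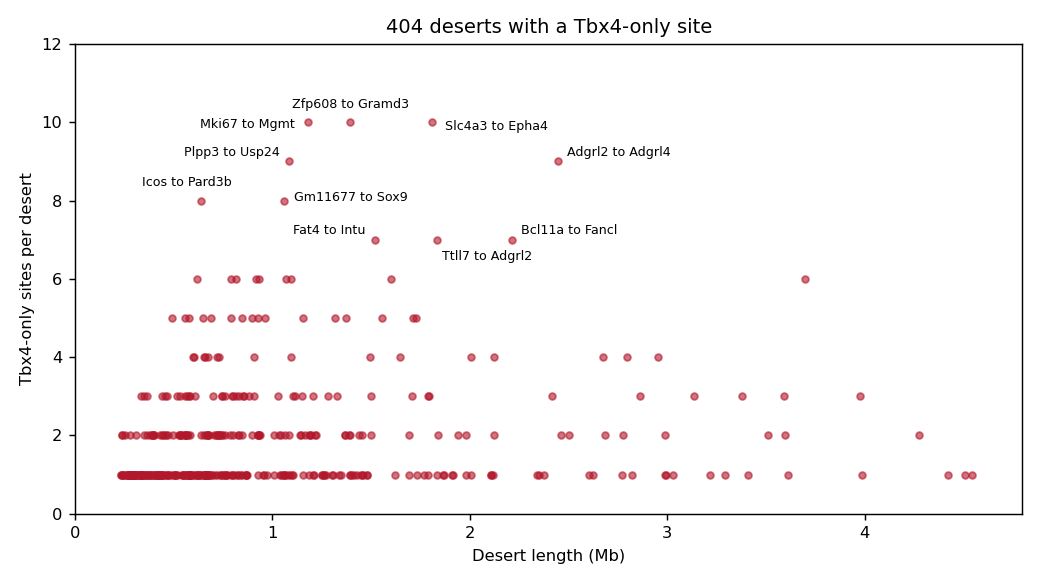
Tbx4-only sites per desert (vertical axis) against desert length in Mb (horizontal axis); each point is 1 of the 404 deserts with a site, and the 10 with the most sites carry the names of their flanking genes. The 3 deserts with 10 sites are between 1178 and 1808 kb long, shorter than the longest desert with a site, at 4542.3 kb.

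Members were uneven between chromosomes. Chromosome 3 held 77, chromosome 8 held 61 and chromosome 1 held 60, against 12 on chromosome 19. Per Mb of desert interior, over 100 kb from both flanking genes, chromosome 9 had 1.88 members and chromosome 18 had 1.87, while chromosome 6 had 0.589. Chromosomes X and Y held 4 and 7 members, or 0.0689 and 0.148 per Mb, and the 4 on X lay in 1 desert beside the vomeronasal receptor gene Vmn2r121. Few sites of the whole list were kept on these chromosomes, 13 and 21.

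The longest desert with no member, 3929.11 kb between Lrrc4c, a synaptic adhesion gene, and Iftap on chromosome 2, held 1 Tbx4 site within 100 kb of a gene and no Hoxc10 site in its interior. The next were those from Dsel to Cntnap5a (3819.68 kb), from Pcdh7 to G6pd2 (3675.61 kb), from D3Ertd751e to Pcdh10 (3575.09 kb) and from Cdh6 to Cdh9 (3552.14 kb). Pcdh7 and Pcdh10 are protocadherin genes, and Cdh6 and Cdh9 are cadherin genes. The last 2 of these deserts each held 2 Tbx4 sites, all co-bound by Hoxc10.

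As many as 10 members each lay in the deserts from Mki67 to Mgmt, from Zfp608 to Gramd3 and from Slc4a3 to Epha4. Mki67 encodes the proliferation marker Ki-67 and Mgmt a DNA repair enzyme. Their desert on chromosome 7 is 1178.01 kb long, and its sites scored 2.26, 2.94, 2.26, 3.67, 4.46, 2.26, 2.94, 8.12, 10.21 and 8.12 from the Mki67 side to the Mgmt side. The highest 3 were the 3 nearest to Mgmt, and each of them had a Hoxc10 summit between 784 and 837 bp away. This desert also held 7 Tbx4 sites co-bound by Hoxc10 and 11 Hoxc10 sites in its interior.

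The desert from Zfp608, a zinc finger gene, to Gramd3 on chromosome 18 is 1394.89 kb long. Its scores from the Zfp608 side were 4.46, 7.14, 4.46, 2.94, 4.46, 3.67, 14.74, 9.15, 4.46 and 6.19. The 5 sites nearest to Zfp608 had no Hoxc10 summit within 126760 bp, whereas the sites of 14.74 and 9.15 had a Hoxc10 summit 268 and 269 bp away. On the other side of Zfp608, toward Csnk1g3, lay 6 more members, so that 16 in all flanked this gene.

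Epha4 encodes an ephrin receptor that guides motor axons and marks limb mesenchyme. The desert between it and Slc4a3, which encodes an anion exchanger, spans 1807.75 kb of chromosome 1. From the Slc4a3 side its sites scored 2.26, 3.67, 9.15, 5.3, 2.94, 1.63, 2.26, 2.94, 2.94 and 15.93. The highest was the nearest to Epha4, 226050 bp from that gene, with no Hoxc10 summit within 168532 bp. All 10 lay on this side of Epha4, and its other desert held no member.

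Adgrl2 encodes a latrophilin, a neuronal adhesion receptor, and Adgrl4 a related receptor of endothelium. The desert between them on chromosome 3 held 9 members. Another 7 lay on the far side of Adgrl2, toward the tubulin-modifying enzyme gene Ttll7. The 9 sites scored from 1.63 to 8.12, with a median of 6.19, and the 7 from 2.26 to 10.21, with a median of 4.46. The first desert held no co-bound site and 1 Hoxc10 site in its interior, and the second held 1 co-bound and 3 Hoxc10 sites. Adgrl2 and Zfp608, with 16 members each, were the genes with the most members in both flanking deserts together.

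Another 9 members lay between Plpp3, a phospholipid phosphatase gene, and Usp24, a deubiquitinase gene, on chromosome 4. They scored 5.3, 5.3, 2.94, 4.46, 2.94, 9.15, 14.74, 15.93 and 6.19 from the Plpp3 side. The 4 highest were the 4 nearest to Usp24. Shorter and more crowded was the desert of 638.344 kb from the T cell costimulator gene Icos to the polarity gene Pard3b, with 8 members. There the density was 18.3 per Mb of interior.

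Sox9, which chondrocytes need in order to form, had members in both of its deserts. The 8 sites between Sox9 and the predicted gene Gm11677 scored 28.89, 6.19, 8.12, 8.12, 3.67, 9.15, 1.63 and 2.26 in order from the Gm11677 side. The strongest lay 953363 bp from Sox9, with a Hoxc10 summit 230 bp away. The 2 sites nearest to Sox9, at 344867 and 331818 bp, were the weakest. On the other side, toward Slc39a11, 3 sites scored 3.67, 3.67 and 8.12.

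The deserts from Fat4 to Intu, from Ttll7 to Adgrl2 and from Bcl11a to Fancl held 7 members each. Fat4 encodes a giant cadherin of planar polarity and Intu a protein of cilium assembly. Their sites scored from 4.46 and 19.64 near Fat4 to 8.12, 9.15 and 2.94 near Intu, with 6.19 and 4.46 between. Bcl11a encodes a zinc finger repressor, and all 7 sites lay nearer to it than to Fancl. Their scores were 2.26, 1.63, 3.67, 3.67, 5.3, 11.3 and 6.19, the last at 799013 bp from Bcl11a.

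**Figure D3:**
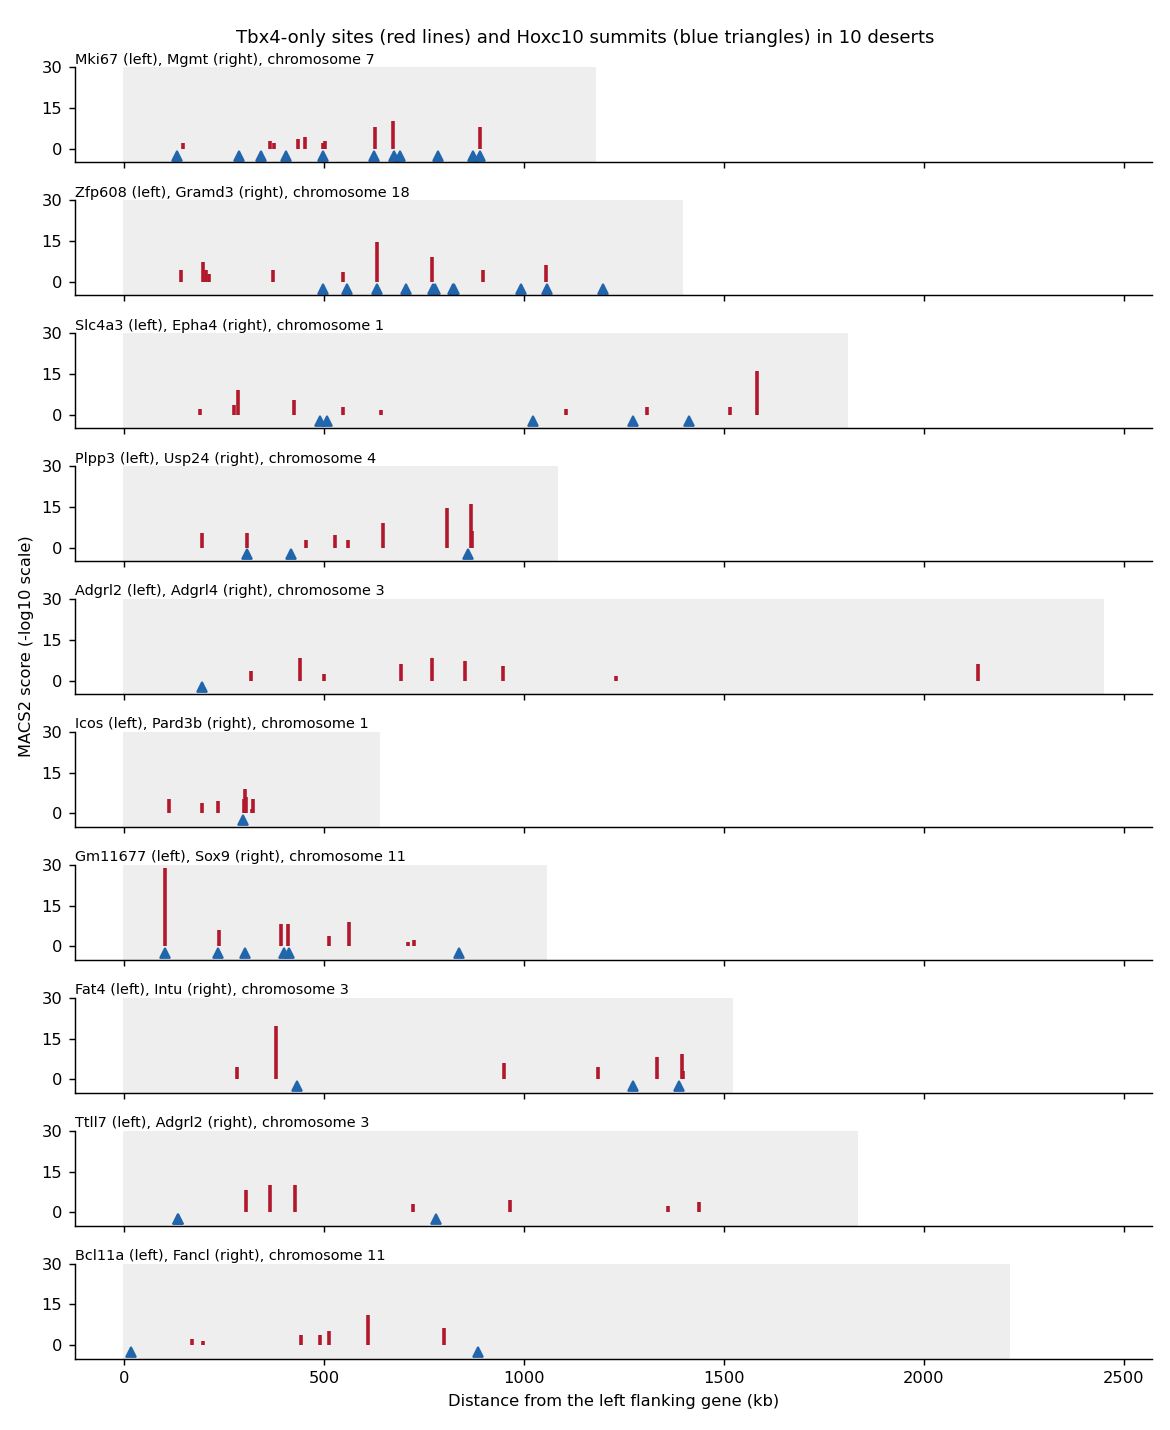
Sites of the 10 deserts with the most Tbx4-only members, plotted by distance from the left flanking gene (horizontal axis, kb) with the MACS2 score as height (red lines); grey marks the desert and blue triangles mark Hoxc10 summits. Hoxc10 summits stand at many places in the Mki67 and Zfp608 deserts, and at 1 place in the desert from Adgrl2 to Adgrl4.

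Of the 10 highest-scoring desert sites, 9 had no other member within 50 kb. The strongest, with a score of 104.5, lay at position 62469015 of chromosome 16 between Epha6, an ephrin receptor gene, and Nsun3, an RNA methyltransferase gene. Its nearest Tbx4 neighbour of any kind was 495573 bp away and its nearest Hoxc10 summit 607021 bp away. The other member of that desert scored 2.94. The next scored 47.87, 136819 bp from Smad2, which carries TGF-beta and activin signals. Next came a pair of sites that scored 41.82. The first was 284087 bp from Triqk in the desert toward the corepressor gene Runx1t1, and the other was 102294 bp from Sesn3, a stress response gene. The first of them had a Hoxc10 summit 23645 bp away.

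Others of the 10 highest lay in deserts with a gene of known role in the limb or its matrix at 1 end, which was not always the nearer gene. A site of 38.86 lay 129211 bp from Cd109 and 753516 bp from Col12a1, which encodes a collagen of tendon and perichondrium. The 2 other members of that desert scored 4.46 and 15.93. Another site of 38.86 lay 189642 bp from Rspo3, a secreted amplifier of Wnt signals. A site of 34.51 lay between the Hox cofactor gene Meis2 and Tmco5, 572608 bp from Meis2 and 238548 bp from Tmco5, and was the only member there. A site of 30.28 lay 133561 bp from En1, the ventral factor of limb ectoderm, inside the lncRNA gene 2610027F03Rik. The remaining 2 were a site of 34.51 between Spata18 and Usp46 and a site of 30.28 between Dok5 and Cbln4. A site between Ptbp2 and Rwdd3 tied with the last at 30.28. Of these 10 sites, 9 had their nearest Hoxc10 summit over 200 kb away.

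Of the genes for limb outgrowth and patterning that flank a long desert, 68.1% had a member in it, against 26.9% of all flanking genes. The lists were chosen with earlier results of these data known, so these shares are no independent support. Of 2811 protein-coding genes that flank a desert over 200 kb long, 756 had at least 1 member in it (26.9%), and 193 had 3 or more (6.87%). These include genes of X and Y, where 7 of 296 such deserts held a member (2.36%), against 28.5% on the autosomes. They also include 428 predicted genes, of which 11% had a member. No share of genes was computed for the autosomes alone. Among 90 genes listed for limb outgrowth and patterning, 47 flanked such a desert. Of these, 32 had a member (68.1%) and 13 had 3 or more (27.7%). Their deserts had a median length of 567 kb, against 419 kb for all. They held 2.96 members per Mb, against 1.03 for all deserts and 1.18 for those of the autosomes. No test was run on the lists.

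Among the signals and receptors of that list, Bmp4 had 3 members in its deserts, and Bmp2, Bmp7, Fgfr2, Jag1 and Wnt5a had 2 each. Bmp ligands, Wnt5a and Fgf signals drive outgrowth and shape the skeleton, and Jag1 is a Notch ligand. The 2 sites in the desert from Jag1 to Btbd3 scored 15.93 and 19.64 and lay 26867 bp from each other. Both were nearer to Btbd3. In the desert from Wnt5a to Cacna2d3 the scores were 11.3 and 4.46, and both sites were nearer to Cacna2d3. In the deserts of Bmp4 they were 6.19, 9.15 and 2.26. All 3 of these sites were nearer to the other flanking gene, Ddhd1 or Cdkn3. Bmp7 shares its desert with Tfap2c, an ectoderm factor, so that its 2 sites (6.19 and 5.3) count for both.

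Among the transcription factors, Zfp703 had 6 members and Hand2, Meis1, Shox2 and Tbx3 had 4 each. Hand2 turns on Shh in the posterior bud, Shox2 is needed for the proximal skeleton, Meis1 marks the proximal limb and Tbx3 acts in posterior digits. The desert from Fbxo8 to Hand2 had scores of 6.19, 1.63, 5.3 and 22.2, the last at 358282 bp from Hand2. That from Veph1 to Shox2 had scores of 7.14, 2.94, 3.67 and 22.2. In both, the highest score belonged to the site nearest to the limb gene. The desert from Med13l to Tbx3 scored 2.94, 9.15, 3.67 and 9.15. En1, Irx1, Irx3, Irx5, Msx2 and Sall1 had 3 each, and Irx3 and Irx5 share theirs (8.12, 2.26 and 5.3). Ets1, with 5 sites in the desert toward Kirrel3, is also a gene of vessels. Its site nearest to Kirrel3 scored 15.93 and the other 4 between 1.63 and 3.67.

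Another 15 limb genes flanked a long desert without any member: Alx1, Dlx6, Fgf10, Fgf9, Gli2, Lhx9, Msx1, Pbx3, Pitx1, Ptch1, Shh, Tbx5, Tfap2a, Tfap2b and Twist2. Shh is the posterior signal of the bud, Fgf10 the mesenchymal signal that starts outgrowth, and Pitx1 and Tbx5 the identity factors of hindlimb and forelimb. A count of 0 covers only Tbx4-only sites over 100 kb from both flanking genes. Sites nearer to a gene, sites co-bound by Hoxc10 and sites inside or beyond a neighbouring gene are not in it.

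In the cartilage and joint list 9 of 17 flanking genes had a member (52.9%). Besides Sox9 with 11 members these were led by Osr1 with 7, Trps1 with 6 and Matn1 with 3. Osr1 is a factor of connective tissue and joints, Trps1 a repressor of chondrocyte maturation and Matn1 a cartilage matrix protein. The 5 sites beyond Trps1 toward Eif3h scored 2.94, 20.91, 6.19, 2.94 and 8.12. Runx2, Nog, Gdf6, Sox6 and 4 other genes of this list (Col11a1, Hapln1, Mef2c and Pthlh) had none. In the muscle, tendon and connective tissue list 14 of 32 had a member (43.8%). They were led by Tcf4 with 8, Nr2f2 and Zeb2 with 6 each, and Ebf1 and Zfhx3 with 5 each. All 5 are genes of transcription factors. Tcf4 here is the E protein gene, a different gene from Tcf7l2. Without a member were Col1a2, Col3a1, Col5a2, Ebf2, Egr2, Foxd1, Foxp1, Foxp2, Pax3, Pdgfra, Postn, Tcf21, Tcf7l2, Tgfb2, Tgfbr2, Tnc, Zeb1 and Zfhx4.

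Lists of other cells and functions gave mixed shares. Of 12 nerve and Schwann cell genes beside a long desert, 1 had a member (8.33%), the neurotrophin receptor gene Ntrk2. Ectoderm genes had 2 of 4 and endothelium and blood genes 3 of 7, too few to read a share from. Of the 3, Cdh5, the cadherin of endothelium, had 5 sites (2.94, 17.15, 3.67, 10.21 and 5.3) in a desert shared with Cdh11, a cadherin of mesenchyme and bone, which was nearer to the first 4. Cadherin and protocadherin genes had a member in 17 of 27 cases (63%), axon guidance genes in 15 of 29 (51.7%), and synaptic adhesion and leucine-rich repeat genes in 20 of 38 (52.6%). Deserts of cadherins were long, with a median of 1520 kb, and held 0.571 members per Mb, below the 1.03 of all deserts. Those of synaptic adhesion genes held 0.634, and those of axon guidance genes 1.17. The share of genes and the density per Mb thus put the cadherins on opposite sides of all flanking genes. Ion channels and neurotransmitter receptors had 16 of 70 (22.9%), olfactory, vomeronasal and taste receptors 3 of 29 (10.3%) and predicted genes 47 of 428 (11%). Cytosolic ribosomal protein genes had 3 of 8 (37.5%).

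The listed limb, cartilage and connective tissue genes were joined with families of DNA-binding factors, 451 genes in all. These lists too were chosen with earlier results of these data known, so the shares below are no independent support. A desert that 1 of these genes flanked held a member in 99 of 202 cases (49%, Wilson interval 42.2 to 55.9%), against 305 of 1487 other deserts (20.5%, 18.5 to 22.6%). Such deserts were longer, with a median of 546 kb against 404 kb. In members per Mb they had 2.38 against 0.849, and on the autosomes alone 2.44 against 0.979. Among deserts of 200 to 500 kb, a listed gene flanked 24% of those with a member and 7.44% of those without. The shares were 32.7% and 10.4% for 500 kb to 1 Mb, and 16% and 7.24% over 1 Mb. In each of these length classes the share was higher for the deserts with a member. These classes include X and Y, where 7 of 296 deserts held a member, and were not computed for the autosomes alone.

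**Figure D4:**
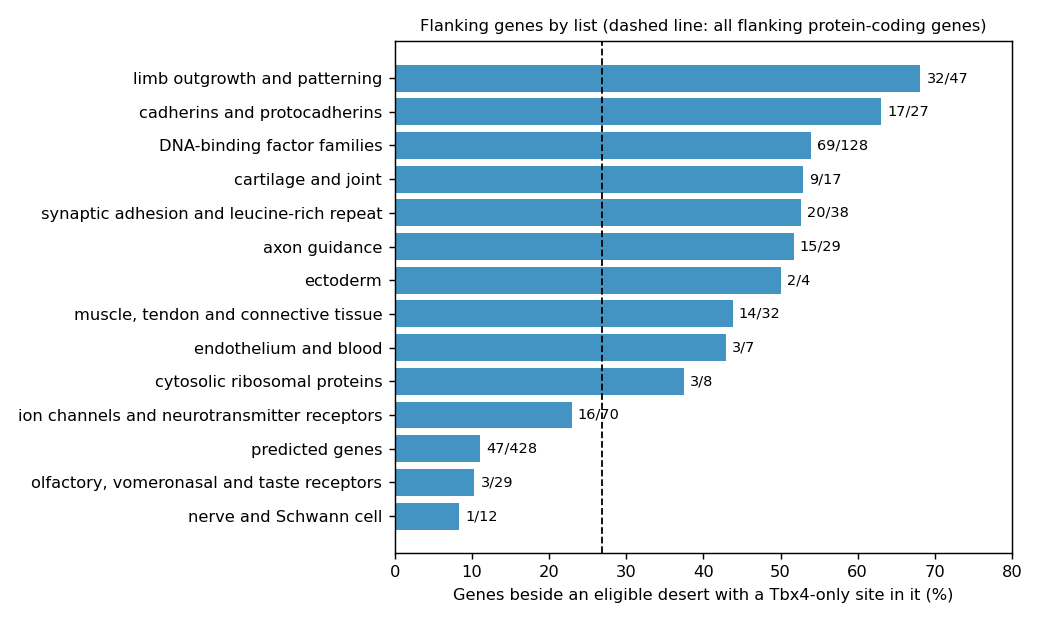
Share of the genes beside a desert over 200 kb long that have at least 1 Tbx4-only site in it (horizontal axis, percent), by gene list; labels give genes with a site over flanking genes, and the dashed line is the 26.9% of all 2811 flanking genes. Limb outgrowth and patterning genes reach 68.1%, and nerve and Schwann cell genes 8.33%. The dashed line includes genes of X and Y and predicted genes.

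Both deserts beside the Hoxd cluster, known for enhancers of the limb, held members. On the Mtx2 side, as far as the predicted gene Gm50595, 5 sites scored 2.94, 12.42, 2.94, 19.64 and 8.12, and 4 of them lay inside the lncRNA gene 2600014E21Rik. On the other side, 4 sites between Atp5g3 and Lnpk formed 1 cluster of 82090 bp with scores of 3.67, 3.67, 6.19 and 4.46.

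Most members (71.4%) had no other member of their desert within 50 kb. Across 410 pairs of neighbouring members of a desert, the median distance was 98 kb (quartiles 30.3 and 210 kb). Deserts with a single member are not in this median. Counting all Tbx4 sites as neighbours, 36% of desert sites had another within 50 kb, against 39.2% of the whole list, and 15.7% had another within 10 kb, against 15%. The corresponding 50 kb shares were 39% for Tbx4-only sites inside genes, 40.2% for those 1 to 100 kb from genes and 49.1% for co-bound sites. In chains of 3 or more Tbx4 sites at steps of up to 50 kb lay 13.5% of desert sites, against 15.6% of the list. The desert shares lay near those of the whole list.

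When only members of the same desert were joined at steps of up to 50 kb, 582 stood alone, 164 formed pairs and 69 formed 20 clusters of 3 to 6. Members of the 20 clusters had a median score of 3.67 and a highest score of 20.91, and solitary members had a median of 3.67 as well. In 17 clusters every score was under 10, and 13 had no Hoxc10 summit within 50 kb of their ends.

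The cluster with the most members lay between G6pd2 and Arap2 on chromosome 5, where 6 members filled 3631 bp from 62210780 to 62214411. They scored 5.3, 3.67, 2.26, 2.94, 1.63 and 1.63, and were the only members of a desert of 791.967 kb. The nearest Hoxc10 summit was 3923809 bp away. Peak names carry running numbers that rise along each chromosome, and these sites held all 6 numbers from 29858 to 29863, so no other numbered peak lay between them. Similar tight groups of 3 low-scoring sites lay between Ptbp2 and Rwdd3 (1781 bp, scores 1.63 to 4.46) and between Kctd16 and Prelid2 (1989 bp, 1.63 to 4.46). Of the 20 clusters, 5 were under 10 kb long.

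The next by number of members, with 5 over 20222 bp between Icos and Pard3b, scored 5.3, 9.15, 6.19, 1.63 and 5.3, with a Hoxc10 summit 3078 bp from the first. In the desert from Mc2r to Tcf4, 4 members over 5995 bp scored 4.46, 5.3, 2.94 and 6.19 inside the lncRNA gene 4930546C10Rik. They stood around a Hoxc10 summit 210 bp from the nearest of them. Tcf4, an E protein gene, was 427359 bp from the closest of these 4. The 4 members of the Mki67 desert cluster spanned 67709 bp, and the 4 between Csnk1g3 and Zfp608 spanned 78372 bp.

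**Figure D5:**
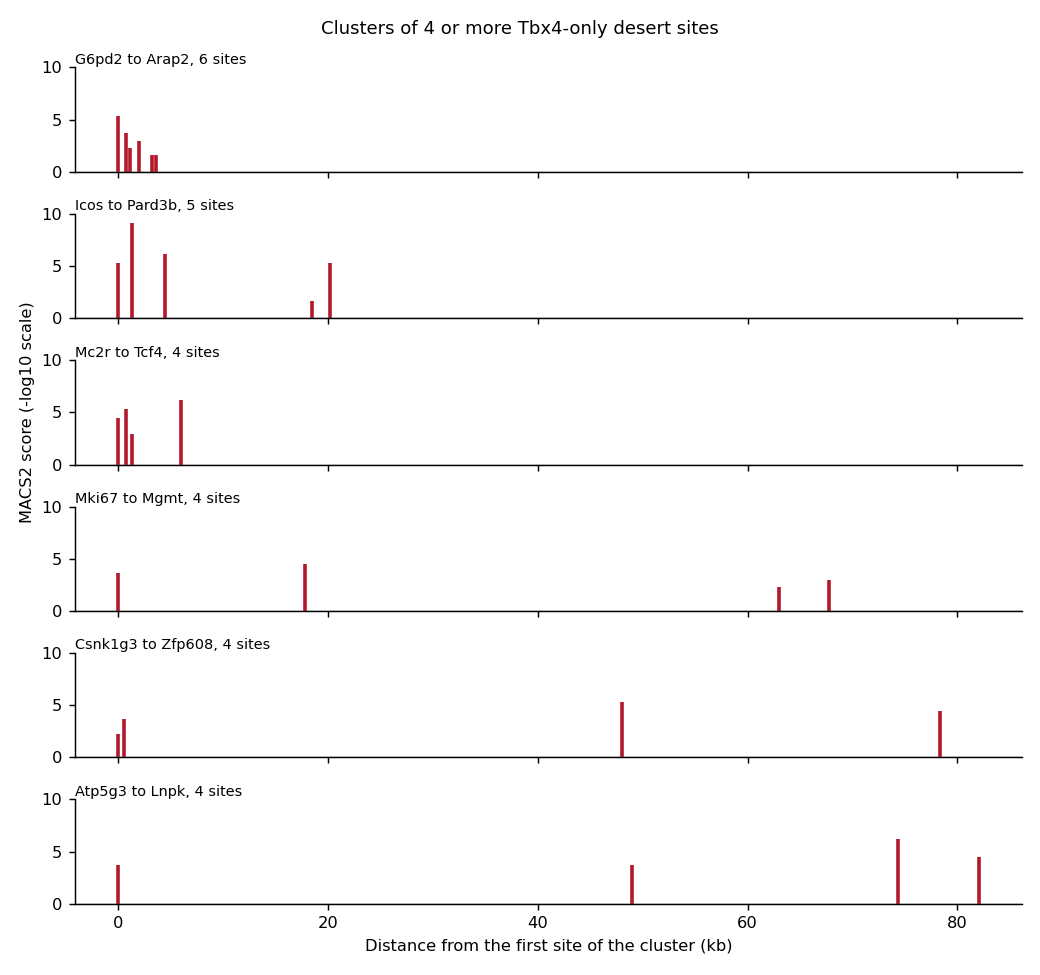
The 6 clusters of 4 or more Tbx4-only desert sites, plotted by distance from their first site (horizontal axis, kb) with the MACS2 score as height; names are those of the flanking genes. The 6 sites between G6pd2 and Arap2 fall within 3631 bp, and the 4 between Atp5g3 and Lnpk spread over 82090 bp.

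Some of the same deserts held Hoxc10 sites elsewhere. The rule keeps Hoxc10 summits over 200 bp away, and 34 members had a Hoxc10 summit within 1 kb, 25 of them within 500 bp. Another 32 had it at 1 to 10 kb, 76 at 10 to 50 kb and 73 at 50 to 100 kb. For 424 members (52%) it was over 100 kb to 1 Mb away, and for 176 (21.6%) over 1 Mb. The median distance was 295 kb. Of the deserts with a member, 158 of 404 (39.1%) held a Hoxc10 site over 100 kb from their ends, against 105 of 1285 deserts without a member (8.17%). The share was 28.9% for deserts with 1 member and 60.2% for those with 3 or more, and these deserts also differed in length. These counts include X and Y, where 7 of 296 deserts held a member and few Tbx4 sites were kept. The shares with a Hoxc10 site were not computed for the autosomes alone. Co-bound Tbx4 sites were present in 82 of the 404. Of all 981 Tbx4 sites in deserts, 166 (16.9%) were co-bound, compared with 10.9% of the whole list.

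A part of the members lay in non-coding genes. Inside an annotated lncRNA gene were 155 members (19%), and these genes cover 9.29% of the desert interiors. Inside pseudogenes were 10 members (1.23%). Outside every annotated gene of any type were 648 (79.5%, Wilson interval 76.6 to 82.1%). Within 1 kb of an end of a non-coding gene or pseudogene lay 36 members (4.42%), against 2.33% of the interiors. Both coverage values include X and Y, which held few members, and unassembled stretches. They were not computed for the autosomes alone, and the shares were not computed for other Tbx4 sites. Members inside lncRNA genes had a median score of 4.46, and those outside every gene 3.67. The lncRNA genes with the most members were 2600014E21Rik beside the Hoxd cluster and 4930546C10Rik, with 4 each, and 1700112M02Rik beside Irx1, with 3. The last had scores between 1.63 and 3.67. Another 2 members, both of 6.19, lay in the immunoglobulin heavy chain locus Igh, and a member of 4.46 lay in the T cell receptor locus Tcra. Gene segments of such loci are not counted as protein-coding in the table.

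MicroRNA genes also stood in these deserts, with 11 hairpins within 50 kb of 9 of the 815 members. The same count was not made for all Tbx4 sites, so it cannot be called high or low. Mature sequences of the best known of them are shown because they name transcripts of the deserts that no protein-coding gene marks. Each is written 5′ to 3′, with the seed (bases 2 to 8) in capitals, from RefSeq on GRCm38.p6.
miR-29a-3p: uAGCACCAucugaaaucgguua
miR-29b-3p: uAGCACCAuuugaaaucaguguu
miR-125b-5p: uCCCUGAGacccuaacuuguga
miR-99a-5p: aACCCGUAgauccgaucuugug
let-7c-5p: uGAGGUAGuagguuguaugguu

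The first 2 share the seed AGCACCA. MicroRNAs of the miR-29 family lower collagen messages, and let-7 restrains growth and early developmental genes. Mir29b-1 and Mir29a lay 16863 and 17209 bp from a site of 7.14 between Klf14 and Mkln1. Mirlet7c-1 and Mir99a lay 37234 and 37984 bp from a site of 3.67 between Usp25 and Cxadr. Mir125b-1 lay 31433 bp from a site of 4.46 in the desert next to Ubash3b, which also holds the LOC115486408 window shown above. Distance alone does not tie a site to a gene.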

How the data were processed

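ChIP-seq of Tbx4 and Hoxc10 was carried out on hindlimb buds. Bowtie2 2.2.6, MACS2 2.1.1.20160309 and HOMER are named as tools, and mm10 as the build, per the submitters' processing notes. The authors deposited 1 bp summits with a MACS2 score on a −log10 scale. Whether it comes from a p-value or a q-value, how 4780 of at least 45103 numbered Tbx4 peaks were selected, and which control was used are not stated there or in the labels, and read depth is unknown. No replicate of either list was used.

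Summits were compared in Python 3.11.15 (pandas 2.3.3, numpy 2.4.6, scipy 1.17.1) with 21883 protein-coding genes of a RefSeq table of GRCm38.p6, whose build is that of mm10. The table has no strand or exons. Deserts are stretches between merged genes, and positions are 1-based. Clusters join members of a desert at steps of up to 50 kb. Named are the 10 highest sites, the 10 richest deserts and the 5 clusters with the most members (ties by shorter span). Also named are the 5 longest empty deserts, the most remote site and sites at the thresholds. Up to 5 genes per list and lncRNA genes with 3 or more sites are named too. All genes of the limb and cartilage lists, other deserts and the microRNAs were named after their values were seen. The same holds for genes without a member in the muscle, tendon and connective tissue list. Members and lists were chosen with earlier results of these data known. Planted sites and chains were recovered in simulated data. Alternatives varied the distance, the Hoxc10 window, the score, the gene set and the cluster step.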

Additional observations from a re-analysis of the deposited data

How the results depend on the processing

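Of 53 alternative values, 32 stayed within 1.5 times (counts) or within the 95% interval (shares and medians), and 21 moved. With a distance of over 200 kb there were 494 members in 251 deserts, 28.43% of those long enough. With over 50 kb, 19.55% of deserts held a site and 33 clusters were found. Limiting the Tbx4 list to the 2336 scores above its median left 391 members with a median of 7.14 in 246 deserts (14.56%). Of these, 20.97% had a neighbour within 50 kb, and 1.79% lay in 2 clusters. Fewer sites remained after this cut, and the cause of the lower shares was not tested. Without predicted genes as borders 26.21% of deserts held a site. A neighbour lay within 10 kb for 15.71% and within 100 kb for 52.64%. Steps of 25 kb gave 10 clusters (4.417% of members) and steps of 100 kb gave 45 (19.39%). Joining all Tbx4 sites gave 45 clusters with 13.5% of members. Wider windows and steps raise these counts by construction, and for the shares of deserts the cause was not tested. Hoxc10 windows of 500 or 1000 bp moved none of the 7 results computed with them. No paired analysis was possible because each factor has 1 list. The unknown read depth and missing replicates limit every count.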
